A study of Mus musculus with 14 samples.

Results

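Ubiquitin conjugation and removal genes were examined in 14 single cells from mouse bone. The members were the rows of the expression table whose gene symbol begins with Ube2, Ube3, Ube4, Uba, Cul, Fbxl, Fbxo, Fbxw, Rnf, Trim, Usp or Otu in the naming pattern of these families, with opposite-strand transcripts left out. They came to 203 of the 9558 rows. By family there were 6 Uba genes, 32 Ube2 genes, 4 Ube3 and Ube4 genes, 8 cullins, 38 F-box genes, 50 Rnf genes, 23 Trim genes, 35 Usp genes and 7 Otu genes. GENCODE annotates 202 of them as protein-coding and 1, Ube2nl, as a processed pseudogene.

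All 14 cells belonged to 1 group. They came from adult C57BL/6 mice of the genotype Prrx1-CreERT;Tomato that had received tamoxifen at 2 mg per 30 g once a day for 3 days. In this line the Prrx1 promoter drives a tamoxifen-dependent Cre, so red fluorescence marks cells in which that promoter was active and their descendants, whatever they express when collected. Tibiae, radii and ulnae were flushed free of marrow, washed and digested, then red cells were sorted and collected singly under a microscope. No animal is named in the labels, so the cells count as 1 sample: the spread between them describes these cells, and no test, p-value or standard error is given.

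Ubiquitin is a small protein that cells attach to other proteins in a relay. An activating enzyme (E1) charges it, a conjugating enzyme (E2) carries it, and a ligase (E3) selects the substrate, while deubiquitinases take it off again. Chains of ubiquitin send proteins to the proteasome or change their location and partners. In bone, ligases and deubiquitinases are known to set the amounts of Wnt and BMP pathway proteins such as beta-catenin and the Smads. Related relays attach SUMO, NEDD8, UFM1 and ISG15, and NEDD8 on a cullin switches on the cullin ligases.

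Levels are log2 values of quantile-normalized FPKM (fragments scaled by transcript length and by library size), and a gene was called detected, or found, at a log2 level of at least 1. Every cell had 5066 detected rows, or 53.0%, a number that the normalization fixes. The depth of the libraries is unknown. The 10 mesenchymal markers examined were each found in 7 cells or more, 8 of them throughout; Prrx1 itself was found in 11 cells, from 0.52 to 7.31 with a median of 3.53. Blood cell transcripts were present as well. Of 18 blood markers with a row, 12 were found in 7 cells or more and 7 throughout. Of all rows, 51.7% were found in 7 cells or more and 15.8% throughout. The mean level of the blood markers ran from 1.71 in cell 4 to 8.43 in cell 14. Next below cell 14 came cell 11 with 7.42, cell 6 with 6.83 and cell 8 with 5.84. The neutrophil genes Camp and Retnlg were found in every cell, whereas Elane was at 0 in 11 cells and Cd79a at 0 in 8. Cell 14 also had the lowest mesenchymal mean, 4.52. The part of blood cell RNA in the members' levels was not tested. Without cells 6, 8, 11 and 14, 105 members, or 51.7%, were seen in 5 or more of the remaining 10 cells, beside 53.3% of rows, and 30, or 14.8%, in all 10, beside 17.4% of rows.

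A pair of rows in the Ube2 family shows how far the table can separate near-copies. Ube2n, the E2 that builds non-degradative ubiquitin chains, lies at chr10:95515145-95545657 on the plus strand of GRCm38. Ube2nl is a copy of its coding sequence at chr7:61549246-61549701 on the minus strand. Over 456 coding bases the pair share 442, or 96.9%. The stretch from position 81 to 220, counted from 1 at the start codon, holds 9 of the 14 differences and is shown for that reason, from the GENCODE transcripts, with the differing bases in capitals.
Ube2n: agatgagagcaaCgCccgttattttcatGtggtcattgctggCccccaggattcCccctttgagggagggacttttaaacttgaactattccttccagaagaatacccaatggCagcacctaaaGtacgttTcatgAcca
Ube2nl: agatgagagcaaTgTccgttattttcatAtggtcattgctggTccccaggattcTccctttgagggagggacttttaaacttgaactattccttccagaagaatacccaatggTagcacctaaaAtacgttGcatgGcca
Read from Ube2n to Ube2nl, the first differences here are C93T, C95T and G109A. Ube2n was found in all 14 cells, at 2.26 to 5.54 with a median of 3.37. Ube2nl was found in 5 cells, those numbered 3, 13, 12, 8 and 4, at 5.08, 4.42, 4.24, 4.04 and 1.05, and was at 0 in 5 others. In cells 3, 8, 12 and 13 Ube2n stood at 5.47, 4.22, 5.28 and 4.72, yet cell 11 had the highest Ube2n level, 5.54, with 0.29 for Ube2nl. No source used here says how reads of such copies were divided, so both levels are uncertain.

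At a log2 level of 1 the members as a whole were detected about as widely as other genes. At higher levels their shares were lower than those of all rows: at 5 or more, 8.37% of members and 13.4% of rows reached at least 7 cells. At least 7 cells held 101 of the 203 members, or 49.8%, beside 51.7% of all rows. All 14 cells held 30 members, or 14.8%, beside 15.8% of all rows. At the other end, 37 members, or 18.2%, were seen in 4 cells or fewer yet reached 5 or more in at least 1 of them, beside 16.2% of all rows. Apart from the share at 5 or more in at least 7 cells, each of these shares lies near that of all rows. The median over members of the mean level was 1.58, beside 1.70 over all rows.

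**Figure D1:**
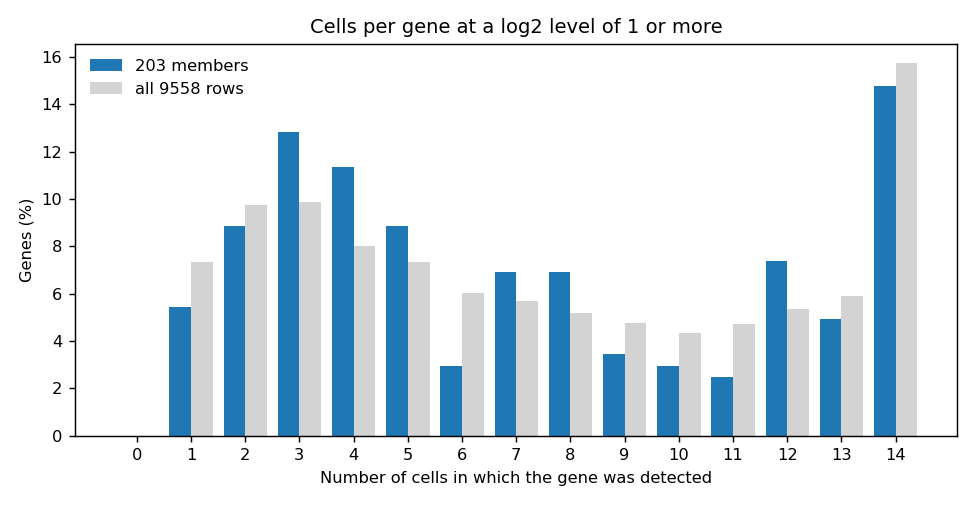
Percentage of genes (vertical axis) detected in each number of cells (horizontal axis), for the 203 members (blue) and all 9558 rows (grey). Both distributions are highest at 14 cells, with 14.8% of members and 15.8% of rows, and have another broad group at 2 to 5 cells.

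The families differed in these shares, and no test of the differences is given. Among the Ube2 genes 23 of 32, or 71.9%, were found in at least 7 cells and 14 in all 14, whereas among the Rnf genes it was 19 of 50, or 38.0%, and 3. The contrast depends on the level: for any value above 0, 30 of 32 Ube2 and 44 of 50 Rnf genes were found in at least 7 cells, and at an FPKM of 10 or more it was 14 and 5. F-box genes had 17 of 38 in at least 7 cells and 1 in all 14. Trim genes had 11 of 23 and 4, and Usp genes 18 of 35 and 4. Cullins had 5 of 8 and 1, Uba genes 5 of 6 and 3, Ube3 and Ube4 genes 1 of 4 and 0, and Otu genes 2 of 7 and 0. The median of the mean levels was 2.80 for Ube2 genes, 1.72 for Usp, 1.41 for F-box, 1.38 for Trim, 1.29 for Rnf and 0.86 for Otu.

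**Figure D2:**
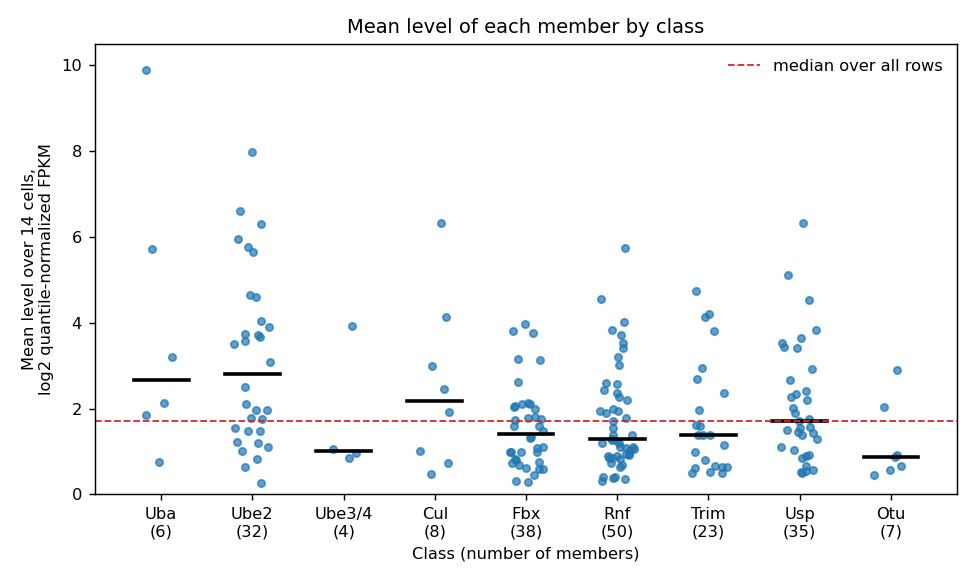
Mean level of each member over the 14 cells (log2 quantile-normalized FPKM), by family, with the number of members under each name; black bars are family medians and the dashed line is the median over all rows, 1.70. The Uba, Ube2 and cullin medians, 2.67, 2.80 and 2.18, lie above the line, and the Usp median, 1.72, just above it. The medians of Ube3 and Ube4, F-box, Rnf, Trim and Otu genes, 1.02, 1.41, 1.29, 1.38 and 0.86, lie below the line.

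Among the genes that supply ubiquitin itself, Ubb, a polyubiquitin gene, and Rps27a, a fusion with a ribosomal protein, were found in all 14 cells with mean levels of 11.28 and 9.81, each with an SD of 0.90 over cells.

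The E1 enzymes of ubiquitin were less even. Uba1, the main ubiquitin-activating enzyme, was found in 10 cells, with a lowest level of 0.18 in cell 8, a median of 1.48 and a highest of 5.38 in cell 2. Uba6, the other ubiquitin E1, was found in 3 cells, with 3.76 in cell 12 as its highest level. Cells 8, 9 and 11 had neither at the detection level: Uba1 stood there at 0.18, 0.71 and 0.43. With an unknown depth this says that the transcripts were not seen in those cells, not that they were absent.

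Related relays were represented as well. Uba2, a subunit of the SUMO E1, was found in all 14 cells from 2.84 in cell 14 to 8.17 in cell 6, with a median of 5.80. For NEDD8, the E1 subunit Uba3 was found in 7 cells with a median of 1.27 and the E2 Ube2m in 8 with a median of 1.63. The other NEDD8 E2, Ube2f, was found throughout, from 2.05 to 9.35 around a median of 6.14. Of the ISG15 relay, the E2 Ube2l6 is described here, and it was found in 5 cells with its highest level, 5.20, in cell 9.

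Among the ubiquitin E2s, Ube2d3 led. It works with a great many RING ligases and lies at chr3:135438149-135468198 on the plus strand. Its level was lowest in cell 6 at 6.25, had a median of 8.18 and was highest in cell 8 at 8.94, with a mean of 7.98 and an SD of 0.78. The spread was small: among the 1506 rows detected in every cell the median SD was 1.85, and the SD of Ube2d3 lay at percentile 1.73. The near-identical paralogue Ube2d2a was found in all 14 cells from 1.02 in cell 6 to 7.01 in cell 3 with a median of 3.68; reads of such close paralogues may be shared, which makes both levels uncertain. Another paralogue, Ube2d1, was at 0 in 10 cells and detected in 2, the higher level being 2.33 in cell 4. Cell 6 thus had the lowest level of both Ube2d3 and Ube2d2a.

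Ube2a and Ube2b, a pair of paralogous E2s that act on histones and on PCNA after DNA damage, were both detected in all 14 cells. Ube2a ranged from 3.59 in cell 3 to 8.28 in cell 2 with a median of 7.40, and Ube2b from 2.84 in cell 2 to 8.25 in cell 14 with a median of 6.67. Cell 2, highest for Ube2a, was the lowest for Ube2b, but in cell 3 both were low, at 3.59 and 2.91. Ube2k, which extends chains that target proteins for degradation, ranged from 2.72 in cell 8 to 9.76 in cell 6 with a median of 6.69. Other Ube2 genes seen in every cell were Ube2l3, which serves HECT and RBR ligases, the ER-associated Ube2j1, Ube2w, Ube2e1, Ube2g1, Ube2n and its partner Ube2v2. Ube2v2 and Ube2v1 resemble E2s but lack the active cysteine, and were found in 14 and 12 cells.

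Of 6 cell cycle members, 3 were found in at least 7 cells, a share near the 51.7% of all rows, and none in all 14. Ube2c, the E2 of the anaphase-promoting complex, was found in 12 cells but with a median of 1.48 and a highest level of 5.57 in cell 6; Tnnc2 overlaps it on the opposite strand. Its co-E2 Ube2s was found in 5 cells, with 7.36 in cell 12, but Rpl28 overlaps it on the opposite strand and its level is uncertain. The DNA repair E2 Ube2t was found in 11 cells, none above 3.54. Cul4a, a cullin of DNA replication and repair ligases, was found in 7 cells and the deubiquitinase Usp37 in 6. Usp1, a deubiquitinase of the Fanconi anaemia pathway, was at 0 in 8 cells and reached 6.84, 6.29 and 6.26 in cells 8, 5 and 14. Of the 6 cycling markers with a row, 3 were found in at least 7 cells: Pcna in all 14 with a median of 5.76, Birc5 in 9 and Tyms in 7. Top2a was found in 4 cells, Mcm5 in 3 and Cdk1 in 1.

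**Figure D3:**
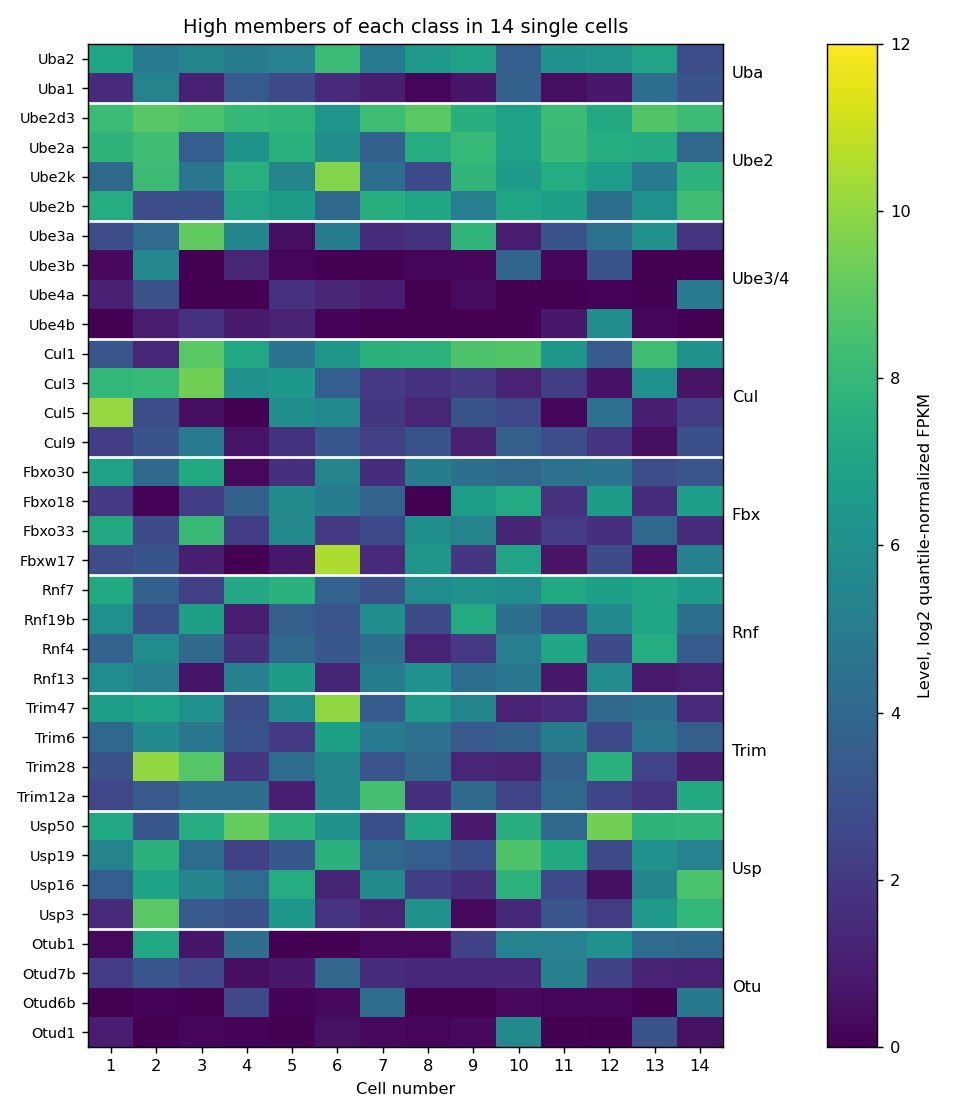
Levels (colour, log2 quantile-normalized FPKM) of up to 4 of the highest-mean members of each family (rows, grouped by the family named at the right) in cells 1 to 14 (columns). Ube2d3 is bright across all columns, whereas rows such as Fbxw17, Cul5 and Otud1 are bright in few cells.

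Ligase scaffolds came next. Cul1, the scaffold of the SCF ligases, was found in all 14 cells from 1.37 in cell 2 to 8.92 in cell 3 with a median of 6.77. Cul3, which works with BTB adaptors, was found in 12 cells, with its highest levels, 9.46, 8.03 and 7.93, in cells 3, 2 and 1 and its lowest, 0.59, in cell 12. Cul5, which works with SOCS-box adaptors, was found in 10 cells and reached 10.08 in cell 1. Rnf7, the RING subunit that pairs with Cul5, was found in all 14 cells from 2.27 in cell 3 to 7.67 in cell 5 with a median of 6.39. Cul1, Rnf7, Ube2d3 and Ube2a were each found in all 14 cells, so their presence together in every cell follows and adds nothing to it. Of 13 cullin adaptors and partners that are not members by name, 10 were found in at least 7 cells and 6 in all 14, beside 51.7% and 15.8% of all rows. Rbx1, Skp1a, Nedd8, Tceb1 and Tceb2 were each found in all 14 cells, with mean levels of 6.40, 6.75, 8.11, 8.69 and 10.31, whereas the regulator Cand1 was found in 5 cells and the substrate receptors Vhl and Keap1 in 4 and 3.

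F-box genes supply the substrate receptors of the SCF ligases, and nearly all of them were found in some cells and not in others. Fbxo33 was the only one detected in all 14 cells, from 1.24 to 8.14 with a median of 2.74. Fbxo30 was found in 13 cells with a median of 4.27 and Fbxo18, which GENCODE names Fbh1 and which encodes a DNA helicase with an F-box, in 12 with a median of 3.73. Fbxw17 was highest in cell 6 at 10.52, followed by cells 10, 8 and 14, with 6.33 in cell 8 and 5.29 in cell 14, and was at 0 in cell 4. Fbxl20 reached 8.98 in cell 1 and 5.24 in cell 4 and was at 0 in 3 cells. Fbxw7, the receptor for Notch and Myc, was found in cell 1 only, at 4.66, and Fbxw11, a receptor for beta-catenin, in 4 cells with 6.81 in cell 2.

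Among the RING genes, Rnf4, which recognises SUMO chains, was found in all 14 cells from 1.14 to 7.42 with a median of 3.93. Rnf19b, a ligase of the RBR type, was found in 13 with 7.32 in cell 9, and Rnf13, a ligase of endosomal membranes, in 11 with a median of 4.89. Rnf168, a histone ligase of the DNA damage response, was found in every cell but stayed low in most, with a median of 2.15 and 5.34 in cell 6. In 4 cells or fewer there were 21 of the 50 Rnf genes, beside 34.9% of all rows, and 10 of these, or 20.0% of the family, reached 5 or more somewhere, beside 16.2% of all rows. Rnf216 was found in 8 cells with a highest level of 8.08 in cell 3.

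Of the Trim genes, 4 were found in every cell. Trim6 was the steadiest of them, from 2.03 in cell 5 to 6.82 in cell 6 with a median of 4.23 and an SD of 1.26. Trim28, the corepressor of KRAB zinc finger proteins, ranged from 1.03 in cell 14 to 10.04 in cell 2 with a median of 3.42, and Zbtb45 overlaps it on the opposite strand. Trim47 was lowest in cell 10 at 1.14 and highest in cell 6, with a median of 4.93, but it overlaps Trim65 on the same strand and its level is uncertain. Trim12a ranged from 1.03 to 8.47 with a median of 3.72, but it belongs to a cluster of close copies that may share reads. Of the HECT and U-box ligases, Ube3a, the imprinted gene of Angelman syndrome, was found in 12 cells from 0.51 to 9.06 with a median of 3.67, while Ube3b, Ube4a and Ube4b were found in 4, 5 and 3 cells.

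Deubiquitinases were generally lower than the E2s. Usp19, an enzyme of the ER membrane, was found in all 14 cells from 2.39 in cell 4 to 8.70 in cell 10 with a median of 4.79. Usp16, which acts on histones, was found in 13 with a median of 4.82, and Usp3, a histone deubiquitinase as well, in 13 with a median of 3.12 and 8.93 in cell 2. Usp9x, Usp34 and Usp48 were also detected in every cell, Usp9x with a median of 2.60 and Usp34 with 2.94. Usp50 had the highest mean of the family, 6.33, but Usp8 overlaps it on the opposite strand and no source used here says whether counting used strand, so reads of the pair cannot be told apart. Usp8 itself was found in 5 cells. Some Usp names are not deubiquitinases: Usp39 is an inactive splicing factor, detected in 6 cells with 8.12 in cell 3, and Usp6nl is a GTPase-activating protein. Among the Otu genes Otub1, which also blocks E2s, was found in 8 cells with 7.16 in cell 2 and a median of 3.22, and Otud7b in 12 with a median of 1.49.

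Within cells the mean of the Ube2 genes generally stood above that of the Usp and Otu genes. Both groups go by gene name. They still hold Usp39, Usp6nl, Ube2v1, Ube2v2, the pseudogene Ube2nl and Usp50, whose reads are uncertain. The mean over the 32 Ube2 genes ran from 2.39 in cell 6 to 3.50 in cell 13 with a median of 3.20, against 1.02 in cell 9 to 2.51 in cell 2 with a median of 1.98 over the 42 Usp and Otu genes. The difference, Ube2 minus Usp and Otu, was above 0 in 13 of 14 cells, with a median of 1.13 and an SD of 0.55 over cells. It was largest in cell 9, at 1.94, and was -0.01 in cell 6. Ube2 transcripts are shorter, with a median longest transcript of 3201 bases against 4742 for the deubiquitinases, and FPKM divides by length while a 3' kit reads transcript ends. With the division by length undone, the median difference was 0.95 and 13 cells were above 0; with a pseudocount of 10 in place of 1 it was 0.62.

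**Figure D4:**
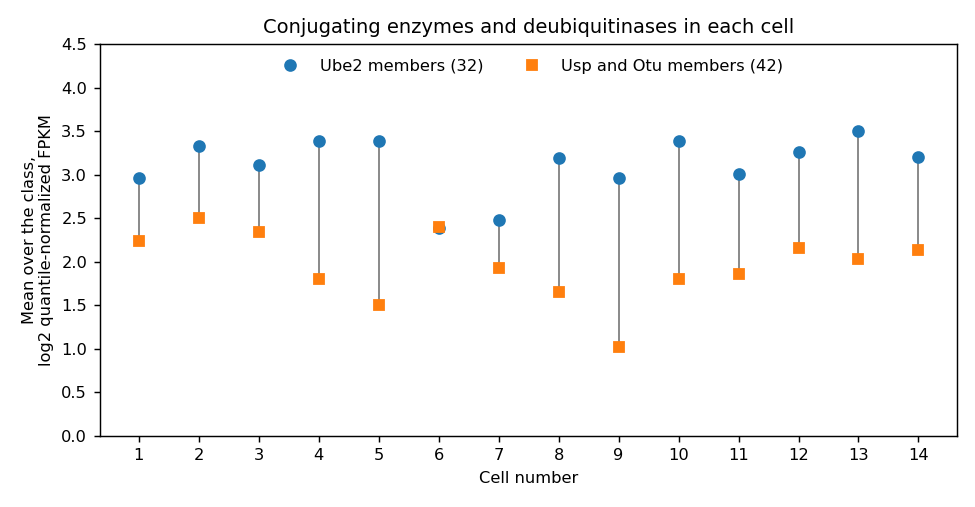
Mean level (log2 quantile-normalized FPKM) over the 32 Ube2 genes (blue circles) and over the 42 Usp and Otu genes (orange squares) in each of the 14 cells. The circles lie above the squares in 13 cells, with the widest gap in cell 9 (1.94) and none in cell 6 (-0.01).

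Averaged over families, the cells differed little. The mean over all 203 members ran from 1.85 in cell 9 to 2.44 in cell 2 with a median of 2.06, and it exceeded the mean over all rows, 2.37, only in cells 1 and 2. Between 95 and 117 members were found in a cell, or 46.8% to 57.6%. Cell 2 held the highest level of 28 members, cell 3 of 26 and cell 1 of 23, down to 8 in cell 5. The same counts over all rows were not made, so no conclusion about the members is drawn from them. Across the 14 cells the member mean had a Spearman rho of 0.31 with the blood marker mean, -0.09 with the mesenchymal mean and 0.02 with the cycling mean. These values describe 14 cells that share library steps and normalization.

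Small sets with a known role are given by their values, with no test. Of 8 members with a row that act on Wnt, BMP or TGF-beta signalling, 2 were found in at least 7 cells, beside 51.7% of all rows. These were Usp9x, a deubiquitinase of Smad proteins, in all 14 with 7.36 in cell 8, and Usp4, which acts on a TGF-beta receptor, in 11 with a median of 2.46. Rnf11, Rnf146, Usp15, Fbxw11, Rnf111 and Fbxw7 were found in 6, 5, 4, 4, 3 and 1 cells. Of 4 interferon-induced members with a row, 1 reached 7 cells: Trim12a was found in every cell, Ube2l6 in 5, and Trim25 and Trim30a in 2 each. Trim25 and Trim30a were highest in cell 14, at 3.33 and 5.13, Trim12a in cell 7 at 8.47 and Ube2l6 in cell 9 at 5.20. The blood marker mean was 8.43 in cell 14, 4.68 in cell 7 and 3.52 in cell 9. Fbxo32, a ligase of muscle wasting, was found in 8 cells and stayed at or below 2.60.

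Other genes of the pathway, taken from lists of precursors, cullin partners, other ligases, other deubiquitinases and ubiquitin readers, had 67 rows apart from the members. Of these, 43, or 64.2%, were found in at least 7 cells, beside 51.7% of all rows, and 15 throughout, beside 15.8% of all rows. Among the ligases, Nedd4 was found throughout, at a median of 5.80, and Smurf2, a ligase for Smads, in 11 cells at a median of 2.57. Among the deubiquitinases, the proteasome-bound Uchl5 was found in all 14 at 6.32 to 8.59, with an SD of 0.66 over cells. Of the 9 ubiquitin readers, 4 were found in at least 7 cells and 3 throughout, beside the same 51.7% and 15.8% of all rows. The autophagy receptors Sqstm1 and Tax1bp1 were both found in every cell, with medians of 9.44 and 6.29, and the receptors Nbr1 and Optn in 5 and 2 cells.

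Over the cells, most pairs of members showed little relation. Among the 101 members detected in at least 7 cells the median Spearman rho over 5050 pairs was 0.02, beside 0.01 over the pairs of all 4939 such rows. A rho of 0.7 or more was reached by 98 member pairs, or 1.94%, beside 1.01% of all pairs. Trim genes had the highest share: among 11 of them the median rho was 0.37, and 11 of 55 pairs, or 20.0%, reached 0.7. The same share was 3.27% for Usp, 2.34% for Rnf, 0.79% for Ube2 and 0.74% for F-box genes. The highest pairs were Trim36 with Otud7b at 0.94 and Usp40 with Trim36 at 0.91, and the lowest was Trim8 with Ube2l3 at -0.85.

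Of the 98 pairs, 68 lay within 1 group of 16 members, a count that includes the 15 pairs by which the group was defined. Trim24, a coregulator of nuclear receptors, had the most partners, 15 at a rho of 0.7 or more, and was singled out after its values were seen. It was lowest in cell 4 at 0.57, had a median of 2.82 and was highest in cell 6 at 6.13. The partners were Otud7b, Trim26, Trim36, Trim6, Trim27, Rnf214, Usp40, Usp53, Ube2c, Usp34, Rnf168, Usp36, Rnf207, Trim43b and Usp6nl. Trim43b has near-identical copies, so its level is uncertain. Their mean together with Trim24 was highest in cells 6, 2 and 3, at 4.61, 3.97 and 3.56, and lowest in cells 4 and 5, at 0.71 and 0.92. The other 187 members averaged 1.81 in cell 6 and 1.95 in cell 4, and across the cells their mean had a rho of 0.07 with that of the group. Of 100 members compared, 15 followed Trim24 at this level, or 15.0%, beside 394 of 4938 rows, or 7.98%. Trim24 was picked for having the most partners among members. Its share of members is raised by that choice, so no conclusion is drawn from the contrast. In comparisons chosen after seeing the data, the number of members following Trim24 was 14 without cell 6, 15 without cells 6, 8, 11 and 14, and 9 without cells 4 and 5. Of the 15 partners, 12, 13 and 9 stayed at 0.7 or more under these choices. The Trim pairs at 0.7 or more fell to 9, 6 and 6 of 55 under the same 3 choices, so their number depends on which cells are included.

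**Figure D5:**
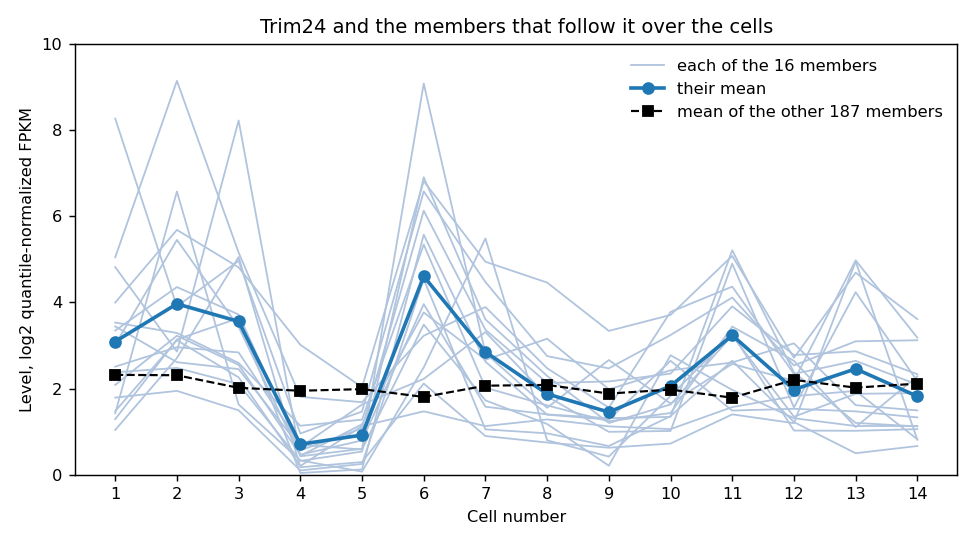
Levels (log2 quantile-normalized FPKM) over cells 1 to 14 of Trim24 and its 15 partners (thin lines), their mean (blue circles) and the mean of the other 187 members (black squares). The blue line peaks in cell 6 at 4.61 and is lowest in cell 4 at 0.71, while the black line stays between 1.79 and 2.32.

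Across the 14 cells the mean of the Trim24 group had a rho of 0.61 with the cycling marker mean, 0.44 with the blood marker mean, 0.07 with the mesenchymal mean and 0.08 with the number of rows at 0. Cell 6 also had the highest cycling mean, 3.46, and the highest level of the endothelial gene Pecam1, 7.07. That cycling mean rested on Pcna at 9.62 and Tyms at 6.73. The other cycling markers were low in cell 6: Top2a 0.11, Cdk1 0.68, Birc5 1.79 and Mcm5 1.80. Among the rows closest to Trim24 over the 14 cells were the cell division genes Kif18a and Dlgap5, at a rho of 0.96 each. They were picked after their values were seen, and Ppp1r16b was as close. The blood genes Mpo and Elane were highest in cell 6 as well, at 11.25 and 8.13. Over all 14 cells Pecam1, the only endothelial marker with a row, had a rho of 0.93 with Trim24. The part of these in the group's pattern was not tested. Several of the group's genes lie low in most cells: Usp6nl averaged 1.46, Trim36 1.37 and Usp40 1.75.

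The promoters of 3 genes of this group, Trim24, Trim6 and Usp40, are shown because their levels moved together, with rho of 0.86 between Trim24 and Trim6 and 0.83 between Trim24 and Usp40. They were chosen after the values were seen. Each run holds the 250 bases before the RefSeq start (GRCm38.p6), 5′ to 3′ on the gene's strand, with matches to GGGCGG (GC box), CCAAT and TATAAA on either strand in capitals. Trim24 lies at chr6:37870561-37870810 on the plus strand, Trim6 at chr7:104218545-104218794 on the plus strand and Usp40 at chr1:88008552-88008801 on the minus strand.
Trim24: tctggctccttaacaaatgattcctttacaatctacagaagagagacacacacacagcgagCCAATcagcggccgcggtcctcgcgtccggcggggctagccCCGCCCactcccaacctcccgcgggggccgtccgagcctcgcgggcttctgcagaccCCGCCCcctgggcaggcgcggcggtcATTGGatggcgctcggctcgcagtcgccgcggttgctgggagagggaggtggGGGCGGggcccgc
Trim6: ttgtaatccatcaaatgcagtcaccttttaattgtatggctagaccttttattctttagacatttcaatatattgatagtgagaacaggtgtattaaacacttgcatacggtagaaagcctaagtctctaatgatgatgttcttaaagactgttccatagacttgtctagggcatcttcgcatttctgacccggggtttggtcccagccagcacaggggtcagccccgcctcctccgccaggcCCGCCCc
Usp40: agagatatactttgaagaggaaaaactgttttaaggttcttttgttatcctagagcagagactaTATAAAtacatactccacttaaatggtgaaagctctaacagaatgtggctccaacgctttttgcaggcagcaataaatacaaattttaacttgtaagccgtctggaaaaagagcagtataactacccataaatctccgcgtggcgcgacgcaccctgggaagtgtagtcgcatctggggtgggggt
No motif was present in all 3: Trim24 holds GC boxes and CCAAT, Trim6 a GC box and Usp40 a TATA box. Of 148 members with a promoter in the RefSeq table, 66.2% held GGGCGG, 29.1% CCAAT and 6.08% TATAAA, beside 59.8%, 36.5% and 6.88% of the 7368 promoters of the table's genes and 33.0%, 34.5% and 12.98% of all 27025 promoters. Of 11 promoters of the Trim24 group, 81.8% held GGGCGG, 27.3% CCAAT and 9.09% TATAAA. A match is a string of letters and is not read as a bound site.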

How the data were processed

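The authors deposited 1 table of expression values for the 14 cells, which were read here as log2(FPKM + 1). Its highest value was 14.58 in every cell, and the sorted values of the cells differed by at most 0.0246 over the 7304 ranks above 0 in all of them, the pattern that quantile normalization leaves. Both readings rest on the values, since no label or header states them. The submitters' processing notes list TopHat2, Cufflinks and GRCm38 without versions, and the labels' protocols name a SMART-Seq v4 3' kit and Nextera XT. Depth is unknown, and a level ranks a gene within its cell. Every column of values matched 1 cell (columns of no sample: 0).

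Genes were called detected at a log2 level of at least 1 and high at 5 or more. Means, SDs, counts and Spearman correlations over cells were computed in Python 3.11.15 with pandas 2.3.3, numpy 2.4.6 and scipy 1.17.1, and figures drawn with matplotlib 3.10.9; the code was tested on simulated data. Gene spans, overlaps and lengths came from GENCODE M21 on GRCm38, promoters from RefSeq. The text names the 4 highest-mean members of each family, the 12 most variable (by SD) of the members found in 5 to 9 cells, the steadiest of each family, and members of sets with a known role; others are named where a count or comparison singles them out. Some members named by this rule are not reported here. The members and lists were chosen with earlier results of these data known.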

Additional observations from a re-analysis of the deposited data

How the results depend on the processing

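The counts of detected members move with the level that counts as detected, and so do those of all rows. Members detected in at least 7 cells came to 182 for any value above 0, 56 for an FPKM of at least 5, 36 for at least 10 and 17 for a log2 level of at least 5, the last chosen after seeing the data. These are 89.7%, 27.6%, 17.7% and 8.37% of members, beside 86.8%, 28.7%, 21.5% and 13.4% of rows. Members detected in all 14 cells came to 94, 7, 3 and 2 under the same levels, or 46.3%, 3.45%, 1.48% and 0.985%, beside 46.0%, 6.21%, 4.24% and 2.46% of rows. Members thus fell below rows at the higher levels. The family counts in at least 7 cells moved too: for any value above 0 they were 34 F-box, 31 Usp and 21 Trim genes, and at an FPKM of at least 10 they were 2, 4 and 5. The median of the member means was 2.11 over rows with a mean of at least 1, 3.80 with a pseudocount of 10 and 2.65 with the division by length undone. The number of cells whose member mean exceeded the row mean was 0 for enzymes of ubiquitin alone, 1 with the filter on the mean, 1 with the pseudocount of 10 and 4 with the division by length undone, and it ranged from 1 to 2 when each cell was left out in turn. No result changed sign. The other 73 alternatives of these results stayed within 1.5 times the count, or for levels within the SD between cells. Many of them left out 1 cell, which can hardly move a level by that SD, so they show little about stability. For the median correlation the spread used was 0.31, the SD over pairs of members. A median of 0.02 could hardly move that far, so its alternatives show little. Of 73 named members, all 73 had means that moved by less than 1 SD without cells 11 and 14. Leaving out so few cells cannot move a mean by 1 SD, so that outcome was fixed in advance. No paired analysis was possible because there is 1 group of cells. Depth, and with it the lowest level that could be seen, is unknown, and the labels do not give the number of animals.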

Other observations

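Some genes that are usually restricted to other tissues shared the pattern of Trim24 over the cells. They were picked after their values were seen, from the 394 rows with a Spearman rho of at least 0.7 with Trim24 over the 14 cells. They do not stand for those rows. The highest rho belonged to other genes: Kif18a, Ppp1r16b and Dlgap5 at 0.96 and Acad12 at 0.95. Pramel7, known from early embryos, had a rho of 0.93 and ran from 0.58 to 5.93 with a median of 2.17. Ctcfl, the testis paralogue of the insulator protein CTCF, had a rho of 0.93 and ran from 0.92 to 5.98 with a median of 3.12. Both were highest in cell 6. The muscle acetylcholine receptor subunit Chrna1 had a rho of 0.89 and a median of 1.72, the placental fusion gene Synb a rho of 0.84 and a median of 2.69, the sperm gene Zan a rho of 0.80 and a median of 3.57, and the milk protein gene Lalba a rho of 0.79 and a median of 1.80. Each was detected in 12 to 14 cells at these levels, close to the detection level in several cells. What these rows measure in bone cells was not tested.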
